A study of Mus musculus with 8 samples.

Results

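Zinc, iron, copper and magnesium enter, leave and are stored in cells through small families of carriers and binding proteins. The genes described here are those whose name in the deposited gene table is a Slc30a, Slc39a, Slc11a, Slc31a, Slc40a1, Slc41a, Steap or metallothionein gene, Mtf1, Tfrc, Fth1, Ftl1, Hamp, Ireb2, Aco1, Atp7a or Atp7b. They were chosen by name and not by level. The rule covers 49 gene names, and 38 of them stand beside a locus, out of 49868 named loci in the table. Tfrc, Ftl1, Slc11a1, Slc31a1, Steap2, Slc39a1, Slc39a2, Slc39a7, Slc39a11, Slc39a13 and Slc39a14 carry no named locus and were not analysed here.

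The study compared mesenchymal stem cells (MSc) from the femora and tibiae of 4 wildtype (C57Bl6/J) and 4 Has-tKO mice by RNA sequencing, 1 library per mouse. Has-tKO cells lack all 3 synthases of hyaluronan, a large polysaccharide of the extracellular matrix: Has1 and Has3 are deleted constitutively, and Has2 is deleted by an inducible Cre. Cells of both genotypes received 4-hydroxytamoxifen for 48 h in passages 2 and 3, and all were grown for 4 passages and sampled on day 7 of osteogenic culture. The wildtype cells therefore carry the drug exposure but not the deletions, and the sources used here do not say whether they carry a Cre, which promoter drives it or how old the mice were. Has3, the single targeted gene with a named locus, was low in both groups (0.236 to 0.466 FPKM in wildtype and 0.15 to 0.663 FPKM in Has-tKO), and since the deleted stretch is not stated this value checks no label. Has1 and Has2 were not analysed here. The question was how complete loss of hyaluronan synthesis bears on osteogenic differentiation.

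Most Slc30a carriers move zinc out of the cytoplasm and Slc39a carriers move it in, while metallothioneins are small cysteine-rich proteins that bind zinc and copper. When cytoplasmic zinc rises, the transcription factor Mtf1 binds metal response elements and activates the metallothionein genes and the zinc exporter Slc30a1. Iron enters cells on transferrin or through Slc11a2, is reduced by Steap proteins, is stored in ferritin (Fth1 and Ftl1) and leaves through Slc40a1 (ferroportin), the only known iron exporter. Macrophages, which recycle iron from red cells, are rich in Slc40a1, and mineralizing bone cells depend on zinc as a cofactor of alkaline phosphatase.

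The letters of the metal response element are shown for 3 genes of the zinc response, in the 250 bases before the start site of RefSeq's promoter entry. The 3 were picked because Mt2 and Slc30a1 rose in Has-tKO without scaling between libraries and Mt1, the neighbour of Mt2, did not pass the test. The sequences come from RefSeq on GRCm38.p6, and capitals mark TGCACNC or TGCGCNC on either strand. The whole window is given for Mt2 (chr8:94172368-94172617, plus strand), and a stretch of 27 bases around the match for Mt1 (chr8:94179056-94179082, plus strand) and Slc30a1 (chr1:191906728-191906754, plus strand), where RefSeq places transcribed bases inside the window.
Mt2: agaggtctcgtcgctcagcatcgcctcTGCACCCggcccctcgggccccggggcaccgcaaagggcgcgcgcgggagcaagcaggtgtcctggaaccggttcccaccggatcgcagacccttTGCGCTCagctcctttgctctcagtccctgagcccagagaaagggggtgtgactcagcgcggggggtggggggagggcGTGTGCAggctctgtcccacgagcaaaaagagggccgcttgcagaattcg
Mt1: ggtcccgctgTGCACACtggcgctcca
Slc30a1: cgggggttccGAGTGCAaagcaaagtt
The Mt2 window holds 3 matches, of which the one closest to the start site is on the minus strand, and the Mt1 and Slc30a1 windows hold 1 each. Since the Mt1 and Slc30a1 windows include transcribed bases, they cover less upstream sequence, and the counts of the 3 genes cannot be compared. Bases farther upstream were not searched. Of 32851 RefSeq promoter windows of this length, 21.4% hold at least 1 match and 1.26% at least 3. A second motif, TGACNNNGC, the core of the antioxidant response element, is matched once by Mt2 (as TGACTCAGC, which also contains the AP-1 letters TGACTCA) and once by Slc30a1, and 10.2% of windows hold it. RefSeq windows were found for 43 of the 49 gene names. Genes that did not pass hold matches too: the windows of Slc30a4 and Atp7a hold 2 each. The window of Slc30a10, a gene listed at 0 in every library, holds 3, as many as that of Mt2. The letters say nothing of binding.

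Levels are FPKM (fragments scaled to transcript length and to the library's total) as deposited, and the sequencing depth is unknown. Wildtype 1 stood apart: 30.4% of its FPKM lay on the single locus with the highest mean, against 14.2% to 18.6% in the other 7 libraries, and its median-ratio size factor was 0.650 against 0.970 to 1.13. The median log2 fold change (on log2(FPKM + 1), Has-tKO minus wildtype) over the 9916 tested genes was 0.16 before scaling by these factors and -0.03 after. Each result is given without scaling first and then with it. Of the labels' cell type, Alpl, Ibsp and Runx2 were present in all 8 libraries, and the summed FPKM of the 6 osteoblast markers of 13 with a named locus, most of it Ibsp and Alpl, was 254.1 to 539.3 in wildtype and 176.6 to 262.3 in Has-tKO. Of these 6 none passed without scaling, and 2 (Alpl and Ibsp) fell after it, against 1.29% of all genes called lower. In each fit 3 of the 6 had an unadjusted p below 0.05, against 16.7% and 18.6% of all genes. Dmp1, among them without scaling, was higher in Has-tKO (0.62, limma adjusted p = 0.261, and 0.39 after scaling). Of 8 tested mesenchymal stroma markers none passed in either fit, with 0 and 1 at an unadjusted p below 0.05. Lymphocyte markers summed to at most 0.428 FPKM, with 6 of 10 at 0.

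Macrophage and myeloid markers were present in every library and differed between the groups. The summed FPKM of the 16 named markers of 20 ran from 388 to 661 in wildtype, the highest being wildtype 3, and from 630 to 1044 in Has-tKO, the lowest being Has-tKO 3 below wildtype 3, and no marker was at 0. Of the 15 tested, 2 rose (Cx3cr1 and Spi1) and none fell, against 1.58% of all genes called higher, and after scaling 1 rose (Cx3cr1), against 1.36%. All 15 had a positive log2 fold change in both fits, and 15 without scaling and 10 with it had an unadjusted p below 0.05, against 16.7% and 18.6% of all genes. Summed adipocyte markers (8 of 10 with a named locus, 1 at 0) were 20.3 to 51.3 FPKM in wildtype and 61.6 to 82.9 FPKM in Has-tKO, but none of the 3 tested passed, and without Cd36 the sums overlap (9.86 to 17.9 and 14.6 to 19.5 FPKM). Summed erythroid markers (11 of 12, with 2 at 0) were 2.73 to 6.79 and 8.72 to 10.3 FPKM, and without Tal1, which is not specific to red cells, they overlap (1.78 to 5.60 and 2.97 to 7.63 FPKM). Of 7 tested chondrocyte markers 2 fell, against 0.192% of all genes called lower, and 3 fell after scaling, against 1.29%. Beyond ratios of Slc40a1 to Csf1r and to Cx3cr1, given below, the part of these cell types in the results on metal genes was not tested. In bulk samples fewer cells of a type and less RNA per cell cannot be told apart.

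Of the 38 metal genes, 27 had at least 1 FPKM in at least 4 libraries and were tested, 7 lay below that filter and 4 (Slc30a8, Slc30a10, Mt4 and Hamp) were listed at 0 in every library. Without scaling Mt2, Slc40a1 and Slc30a1 rose in Has-tKO and none fell, so that 3 of 27 tested genes were called, against 1.77% of all 9916 called in either direction and 1.58% called higher (limma, adjusted p below 0.05). All 3 lay just under the threshold, and with a pseudocount of 0.5 or 0.1 FPKM in place of 1 none passed. In each of these fits 7 of the 27 had an unadjusted p below 0.05. Of all 9916 genes 1657 (16.7%) had one with a pseudocount of 1, 1633 with 0.5 and 1597 with 0.1. After scaling 1 rose (Slc30a1) and 1 fell (Steap3, an iron reductase), against 2.65% of all genes (1.36% higher and 1.29% lower). An unadjusted p below 0.05 was then found for 10 of the 27, against 18.6% of all genes. Without wildtype 1 and Has-tKO 4, the libraries with the largest share of FPKM on unnamed loci (61.5% and 56.4%), Steap3 fell and no other of the 27 passed, with or without scaling. The median log2 fold change of the 27 was 0.16 without scaling and -0.05 with it, next to 0.16 and -0.03 for all tested genes.

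**Figure D1:**
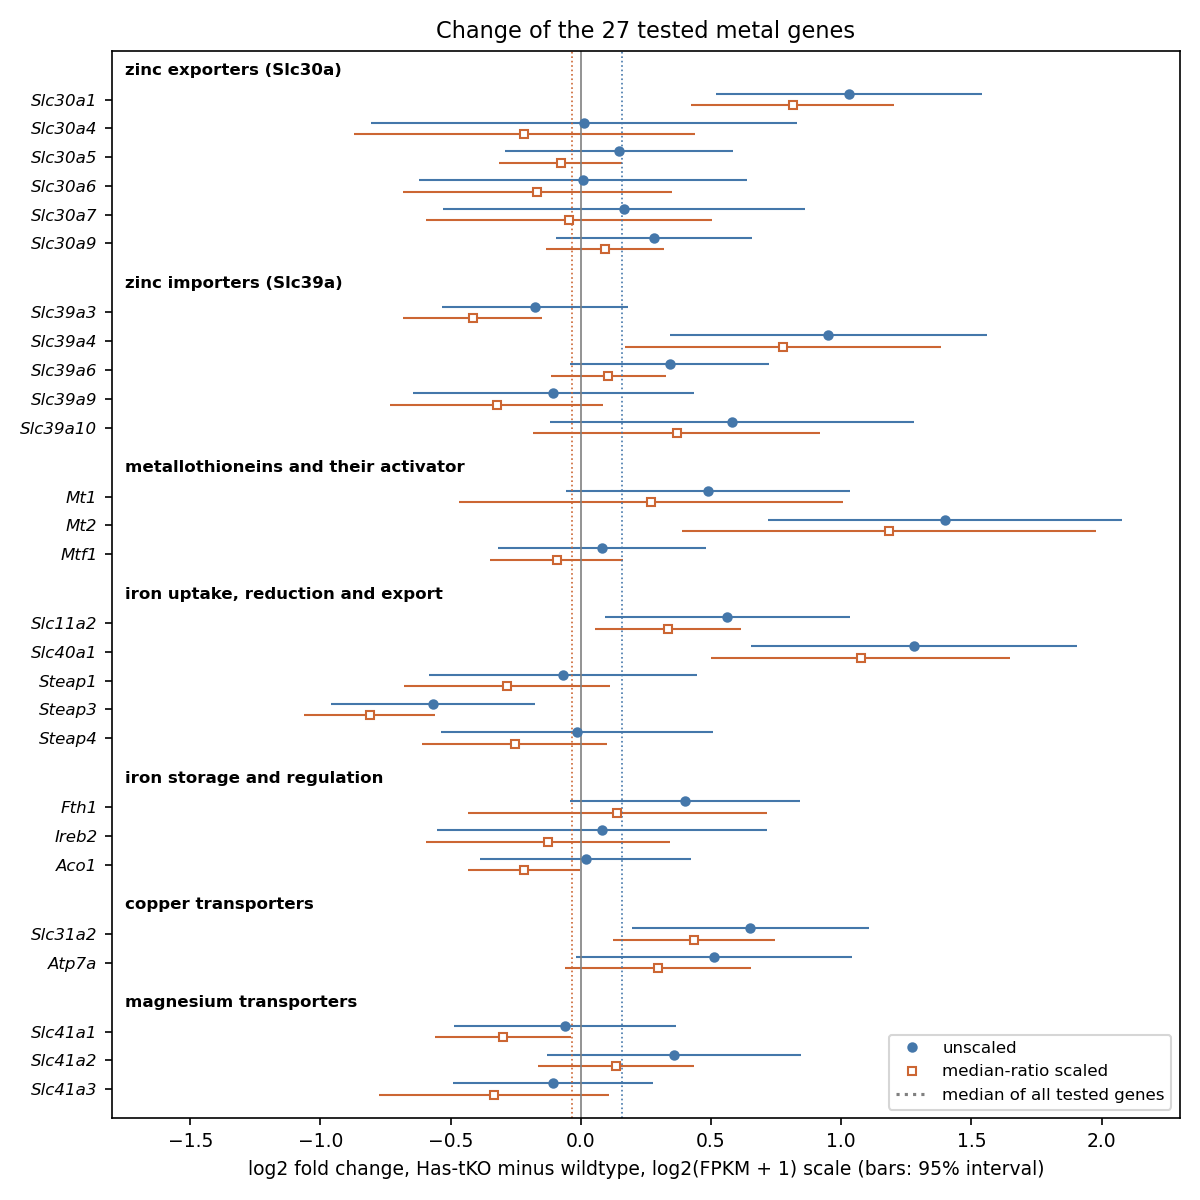
Log2 fold change of each of the 27 tested metal genes (x axis, on log2(FPKM + 1), Has-tKO minus wildtype) with its 95% interval, by role, without scaling (filled circles) and after median-ratio scaling (open squares). Dotted lines are the medians of all 9916 tested genes, 0.16 and -0.03. Mt2 (1.40 and 1.18), Slc40a1 (1.28 and 1.08) and Slc30a1 (1.03 and 0.81) lie farthest to the right and Steap3 (-0.57 and -0.81) farthest to the left.

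Slc30a1, on chromosome 1, is the zinc exporter of the plasma membrane. Its level was 2.57, 5.31, 6.60 and 3.67 FPKM in wildtype 1 to 4 and 11.8, 7.88, 9.27 and 10.9 FPKM in Has-tKO 1 to 4. Every Has-tKO library was above every wildtype library, and this held after scaling too, with 3.79 to 6.37 against 6.99 to 10.8 scaled FPKM. The means were 4.54 ± 1.78 and 9.97 ± 1.75 FPKM (SD, n = 4 each). The log2 fold change was 1.03 (SE 0.23, 95% interval 0.52 to 1.54, limma adjusted p = 0.0495), and 0.81 after scaling (SE 0.17, adjusted p = 0.0433). The call did not hold in most fits with 1 library left out: it passed in 2 of 8 fits without scaling (without wildtype 1 or wildtype 3) and in 1 of 8 with it (without wildtype 3), with log2 fold changes of 0.84 to 1.20 and 0.73 to 0.94. The myeloid marker sum was highest in Has-tKO 1 and 4, where Slc30a1 was highest too. That sum was lower in Has-tKO 3 than in wildtype 3 (630 and 661 FPKM), while Slc30a1 was higher (9.27 and 6.60 FPKM). A link between the sum and Slc30a1 was not tested.

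The other tested Slc30a genes did not pass. Slc30a4, Slc30a5, Slc30a6 and Slc30a7, which fill vesicles and the secretory pathway with zinc, and Slc30a9 had log2 fold changes of 0.01 to 0.28, and the lowest adjusted p was 0.434 (Slc30a9). Slc30a9 was 1.74, 3.14, 3.06 and 2.64 FPKM in wildtype 1 to 4 and 3.30, 3.85, 3.49 and 2.90 FPKM in Has-tKO 1 to 4, with Has-tKO 4 inside the wildtype range. After scaling these 5 ranged from -0.22 to 0.09. Their intervals differ in width: for Slc30a5 the scaled 95% interval was -0.31 to 0.16, while for Slc30a4 it was -0.87 to 0.44. The levels of Slc30a4 were 4.35 FPKM in wildtype 1, 15.1 to 21.4 FPKM in the other wildtype libraries and 9.98 to 16.0 FPKM in Has-tKO. Slc30a2 and Slc30a3 stayed at or below 0.0515 FPKM.

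The percentage of the summed Slc30a FPKM that fell on Slc30a1 was also read within each library. It was 15.6%, 10.2%, 13.8% and 9.22% in wildtype 1 to 4 and 26.9%, 16.1%, 19.2% and 28.9% in Has-tKO 1 to 4. The Has-tKO values all lie above the wildtype values, and such a ratio is unaffected by scaling between libraries. This was 1 of 6 within-library ratios chosen after the values were seen (two-sided exact permutation p = 0.0286, which 4 against 4 libraries cannot go below, and 0.0857 adjusted over the 6).

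No zinc importer passed in either fit. Slc39a4, the importer best known from intestinal zinc uptake, had the largest difference: it was 1.06, 1.22, 3.22 and 0.919 FPKM in wildtype 1 to 4 and 6.33, 2.64, 3.74 and 3.09 FPKM in Has-tKO 1 to 4. Wildtype 3 lay above 2 Has-tKO libraries. The log2 fold change was 0.95 (95% interval 0.34 to 1.56, adjusted p = 0.104), and 0.78 after scaling (adjusted p = 0.164), and the unscaled fit passed it only without wildtype 3 (1.21, adjusted p = 0.0202). Slc39a6, which brings zinc in at the cell surface, was 6.20, 10.5, 9.64 and 9.24 FPKM in wildtype 1 to 4 and 11.6, 10.4, 11.3 and 12.2 FPKM in Has-tKO 1 to 4, where Has-tKO 2 lay just under wildtype 2 (0.34, adjusted p = 0.350, and 0.11 after scaling).

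Slc39a10, another cell-surface importer, had 6.59 ± 3.09 and 9.57 ± 2.11 FPKM (log2 fold change 0.58, adjusted p = 0.384). Slc39a9, a carrier of the secretory pathway, had -0.11 (adjusted p = 0.856). Slc39a3 had -0.18 without scaling (adjusted p = 0.610) and -0.42 with it (adjusted p = 0.104), when its groups did not overlap (11.7 to 14.8 against 8.24 to 11.1 scaled FPKM). Slc39a8, an importer of zinc and manganese that inflammatory signals can induce, lay below the filter at 0.286, 0.755, 0.868 and 0.434 FPKM in wildtype 1 to 4 and 0.915, 0.740, 0.730 and 1.41 FPKM in Has-tKO 1 to 4 (two-sided exact permutation p = 0.171). Slc39a5 and Slc39a12 stayed at or below 0.194 FPKM.

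**Figure D2:**
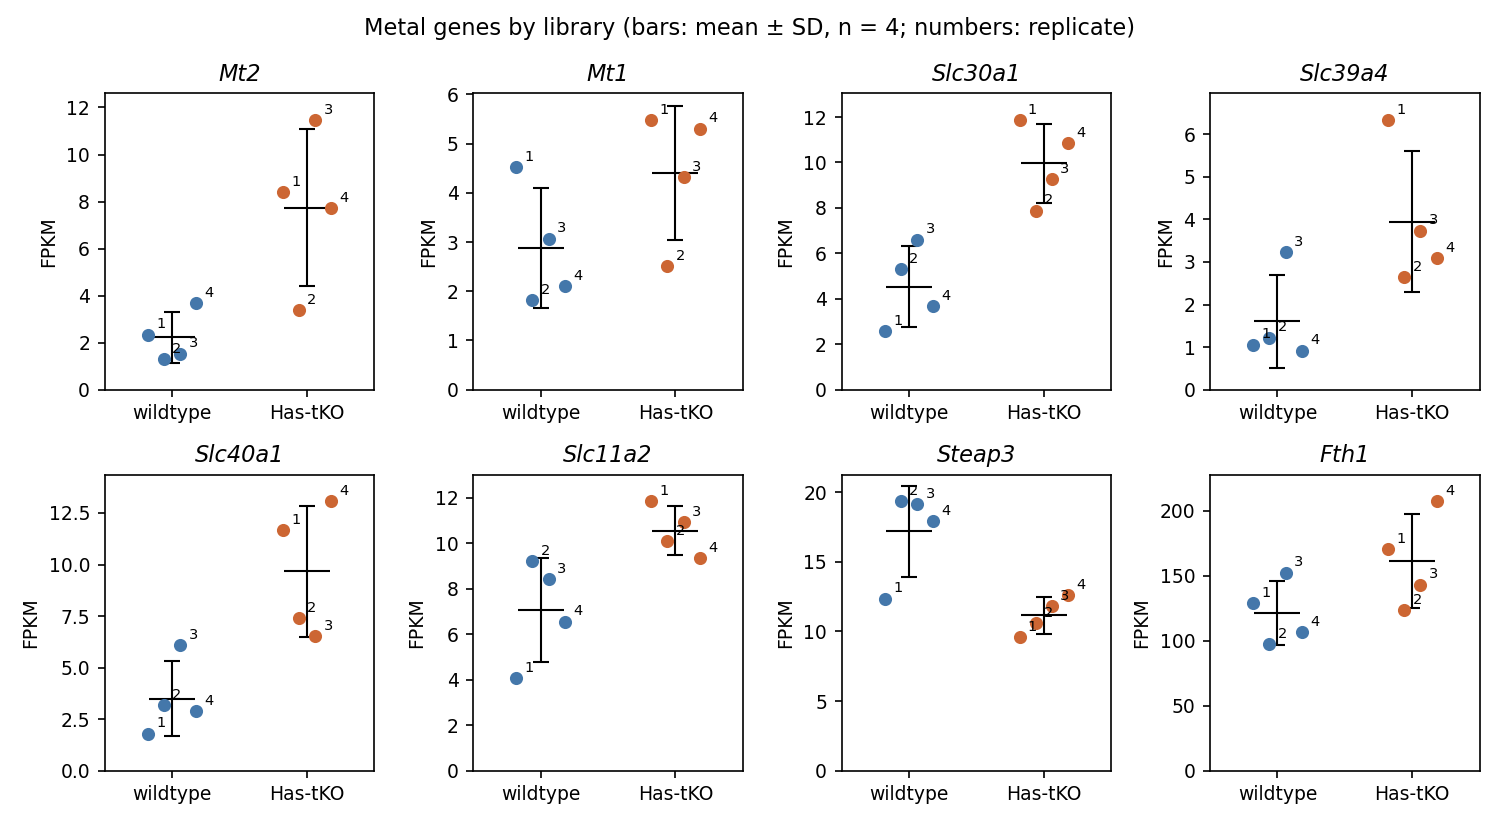
FPKM of 8 metal genes in each library (y axis, starting at 0), wildtype in blue and Has-tKO in orange, with mean ± SD over 4 libraries and the replicate number beside each point. For Slc30a1, Slc40a1 and Slc11a2 every Has-tKO point is above every wildtype point, while Mt2, Mt1, Slc39a4, Steap3 and Fth1 overlap.

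Mt2, a metallothionein gene next to Mt1 on chromosome 8, rose in Has-tKO without scaling. It was 2.34, 1.31, 1.54 and 3.69 FPKM in wildtype 1 to 4 and 8.41, 3.37, 11.4 and 7.71 FPKM in Has-tKO 1 to 4. Has-tKO 2 lay below wildtype 4, and the other 3 Has-tKO libraries lay above all wildtype libraries. The means were 2.22 ± 1.08 and 7.73 ± 3.33 FPKM (log2 fold change 1.40, SE 0.31, 95% interval 0.72 to 2.08, limma adjusted p = 0.0472). After scaling Mt2 did not pass (1.18, SE 0.36, adjusted p = 0.116). Among the 8 unscaled fits with 1 library left out it passed in 1, the one without Has-tKO 2 (1.70, adjusted p = 0.0331), and in none of the scaled ones (0.98 to 1.49).

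Mt1, the other metallothionein gene used in most tissues, did not pass. It was 4.52, 1.83, 3.07 and 2.11 FPKM in wildtype 1 to 4 and 5.47, 2.52, 4.33 and 5.31 FPKM in Has-tKO 1 to 4, with overlapping groups. The log2 fold change was 0.49 (95% interval -0.06 to 1.03, adjusted p = 0.352), and 0.27 after scaling (-0.47 to 1.005). Scaling made wildtype 1 the highest of all libraries for Mt1, at 6.95 scaled FPKM. The other wildtype libraries had 1.72 to 2.96 and the Has-tKO libraries 2.23 to 4.98 scaled FPKM. Without wildtype 1 the scaled log2 fold change of Mt1 was 0.59 (limma adjusted p = 0.181). Has-tKO 2 was the lowest Has-tKO library for both genes.

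Whether the 2 metallothioneins changed by different amounts was compared within libraries. The ratio of Mt2 to Mt1 was 0.519, 0.716, 0.501 and 1.75 in wildtype 1 to 4 and 1.54, 1.34, 2.65 and 1.45 in Has-tKO 1 to 4. Wildtype 4 lay within the Has-tKO range, and the difference did not pass (two-sided exact permutation p = 0.114, and 0.137 adjusted over the 6 ratios).

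Mtf1, the zinc-sensing transcription factor itself, was 1.48, 3.07, 2.99 and 2.18 FPKM in wildtype 1 to 4 and 2.83, 2.57, 2.65 and 2.23 FPKM in Has-tKO 1 to 4, all within the wildtype range. Its log2 fold change was 0.08 without scaling (95% interval -0.32 to 0.48, adjusted p = 0.845) and -0.09 with it. Mt3, a form known from brain, was listed at 0.413 and 0.157 FPKM in wildtype 1 and 2 and at 0 in the other 6 libraries.

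Slc40a1, the iron exporter ferroportin on chromosome 1, rose in Has-tKO without scaling. Its level was 1.79, 3.19, 6.10 and 2.90 FPKM in wildtype 1 to 4 and 11.7, 7.39, 6.54 and 13.1 FPKM in Has-tKO 1 to 4. The groups do not overlap, with wildtype 3 just under Has-tKO 3, and they do not overlap after scaling either (2.75 to 5.89 against 6.0 to 12.3 scaled FPKM). The means were 3.50 ± 1.84 and 9.67 ± 3.19 FPKM (log2 fold change 1.28, SE 0.29, 95% interval 0.65 to 1.91, limma adjusted p = 0.0478). After scaling the gene did not pass (1.08, SE 0.26, adjusted p = 0.0606). With 1 library left out it passed only without wildtype 3 in both kinds of fit (1.53, adjusted p = 0.0135, and 1.28 scaled, adjusted p = 0.0251), and its log2 fold change stayed between 1.08 and 1.53 unscaled.

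The order of the libraries by Slc40a1 was close to their order by myeloid markers. The 2 Has-tKO libraries with the most Slc40a1, Has-tKO 4 and Has-tKO 1, also had the highest marker sums (1017 and 1044 FPKM). Wildtype 3 and Has-tKO 3 were near each other in both, with 661 and 630 FPKM of markers beside 6.10 and 6.54 FPKM of Slc40a1. Divided by Csf1r, the macrophage growth factor receptor, Slc40a1 was 0.0571 to 0.0818 in wildtype and 0.0876 to 0.119 in Has-tKO, without overlap (two-sided exact permutation p = 0.0286, and 0.0857 adjusted over the 6 ratios). Divided by Cx3cr1, which itself rose, it was 1.118 to 2.87 in wildtype and 1.13 to 2.25 in Has-tKO (two-sided exact permutation p = 0.457). The mean log2 difference was 0.54 for the Csf1r ratio and -0.33 for the Cx3cr1 ratio, whose groups overlap. Only these 2 of the 16 named markers were used as divisors, and the result differed between them.

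**Figure D3:**
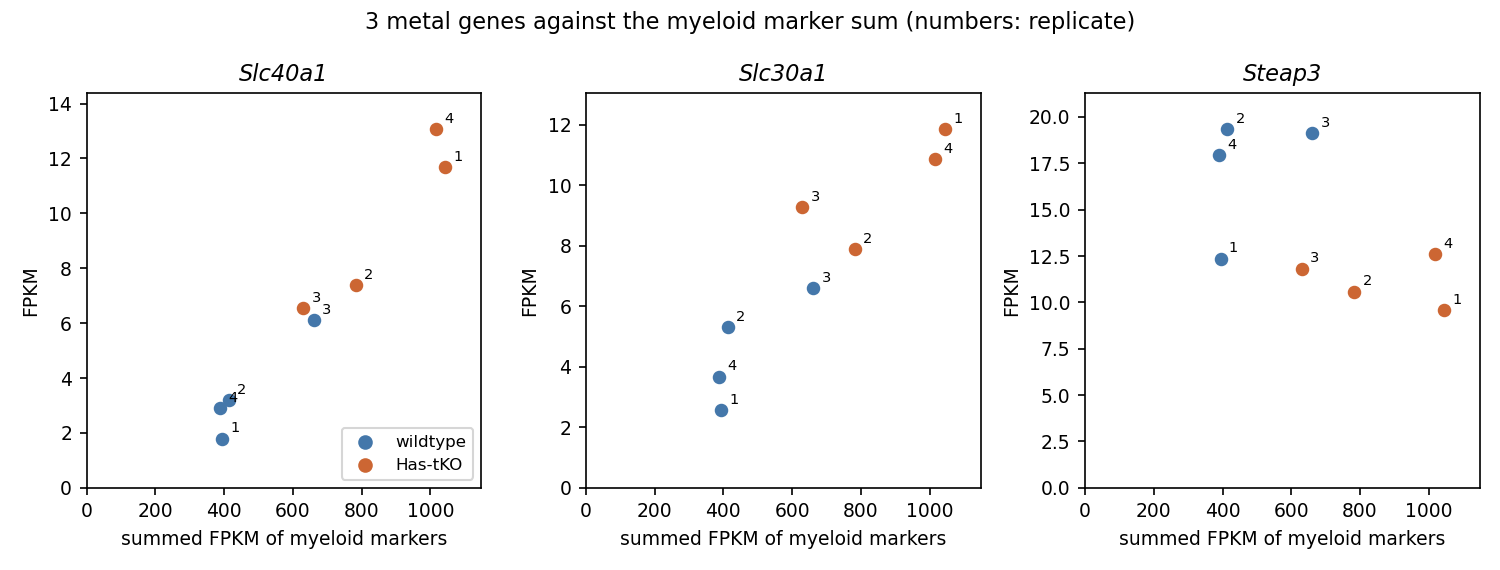
FPKM of Slc40a1, Slc30a1 and Steap3 (y axes) against the summed FPKM of 16 myeloid markers (x axis) in 8 libraries, wildtype in blue and Has-tKO in orange, with replicate numbers. Wildtype 3 (661 FPKM of markers) and Has-tKO 3 (630 FPKM) are close for Slc40a1 (6.10 and 6.54 FPKM) and farther apart for Slc30a1 (6.60 and 9.27 FPKM) and Steap3 (19.1 and 11.8 FPKM).

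Slc11a2 (DMT1), the carrier that brings ferrous iron into the cytoplasm, was 4.08, 9.23, 8.42 and 6.56 FPKM in wildtype 1 to 4 and 11.8, 10.1, 10.9 and 9.35 FPKM in Has-tKO 1 to 4. The groups do not overlap with or without scaling, which holds for 13.6% of all tested genes unscaled and 13.2% scaled. The gene did not pass the test (log2 fold change 0.56, 95% interval 0.09 to 1.03, adjusted p = 0.209, and 0.34 after scaling, adjusted p = 0.190).

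Steap3, the reductase that converts transferrin-borne iron in endosomes, fell after scaling. Its level was 12.4, 19.3, 19.1 and 17.9 FPKM in wildtype 1 to 4 and 9.60, 10.6, 11.8 and 12.6 FPKM in Has-tKO 1 to 4, with wildtype 1 under Has-tKO 4. After scaling the 4 wildtype libraries lay together at 18.2 to 19.0 and the Has-tKO libraries at 8.73 to 11.8 scaled FPKM, without overlap. The log2 fold change was -0.57 without scaling (SE 0.18, adjusted p = 0.127) and -0.81 with it (SE 0.11, 95% interval -1.06 to -0.56, limma adjusted p = 0.0129).

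Without wildtype 1 Steap3 passed in the unscaled fit too (-0.71, adjusted p = 0.0169). Scaled fits with 1 library left out passed in 6 of 8, and the other two (without wildtype 4 and without Has-tKO 1) gave adjusted p = 0.0562 and 0.0581. Of Mt2, Slc40a1, Slc30a1 and Steap3, Steap3 passed in the most scaled fits.

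Steap1 and Steap4, genes of the same family, did not pass. Steap1 had 5.76 ± 2.33 and 5.22 ± 0.948 FPKM (log2 fold change -0.07, adjusted p = 0.903), and Steap4 had 14.0 ± 4.11 and 13.6 ± 3.40 FPKM (-0.01, adjusted p = 0.981). After scaling both were lower without passing (-0.28 and -0.25). The ratio of Steap3 to Steap4 within a library was 1.097 to 1.51 in wildtype and 0.574 to 1.18 in Has-tKO (two-sided exact permutation p = 0.0857, and 0.129 adjusted over the 6 ratios).

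**Figure D4:**
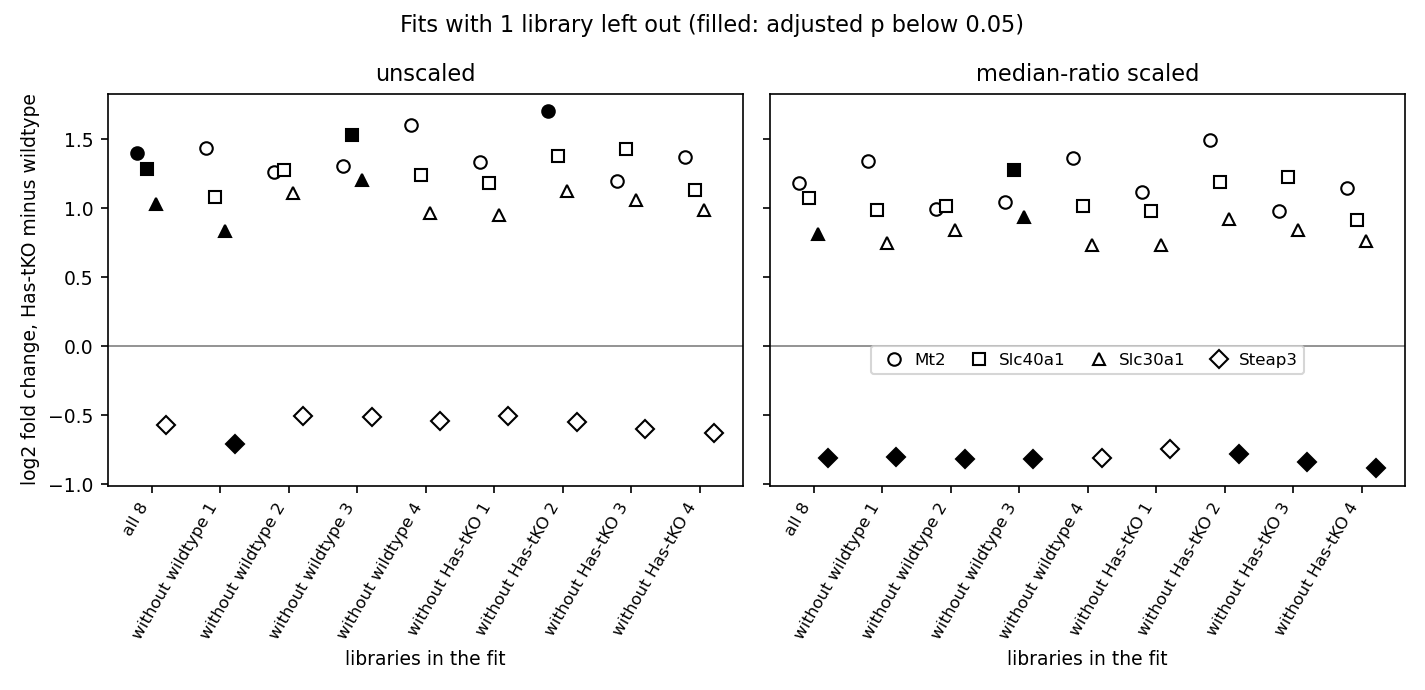
Log2 fold change (y axis, on log2(FPKM + 1), Has-tKO minus wildtype) of Mt2, Slc40a1, Slc30a1 and Steap3 with all 8 libraries and with each library left out (x axis), unscaled on the left and median-ratio scaled on the right. Filled symbols mark adjusted p below 0.05. Signs are the same in all fits shown, from 0.73 to 1.70 for the 3 higher genes and from -0.88 to -0.50 for Steap3, while few symbols of the 3 higher genes are filled.

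Fth1, the heavy chain of the iron-storing protein ferritin, was 129, 97.4, 152 and 106 FPKM in wildtype 1 to 4 and 171, 124, 143 and 207 FPKM in Has-tKO 1 to 4. The groups overlap, and the gene did not pass (log2 fold change 0.40, 95% interval -0.04 to 0.84, adjusted p = 0.342, and 0.14 after scaling). Scaling made wildtype 1 the highest of all libraries for Fth1 too (198 scaled FPKM, against 110 to 194 in Has-tKO). Fth1 has near-identical processed copies in the genome, so its value is uncertain. Ireb2 and Aco1 encode the proteins that bind iron-responsive elements and set ferritin and transferrin receptor synthesis. Ireb2 was 2.40, 8.47, 7.44 and 6.54 FPKM in wildtype 1 to 4 and 5.84, 7.95, 6.40 and 4.68 FPKM in Has-tKO 1 to 4 (0.08, adjusted p = 0.905). Aco1 had 10.8 ± 2.50 and 10.7 ± 1.0 FPKM (0.02, adjusted p = 0.965). After scaling Ireb2 had -0.13 and Aco1 -0.22, and neither passed.

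Neither copper carrier tested passed. Slc31a2, a relative of the copper importer Slc31a1, was 2.94, 5.91, 6.04 and 4.07 FPKM in wildtype 1 to 4 and 7.86, 8.87, 6.17 and 8.42 FPKM in Has-tKO 1 to 4. The groups do not overlap without scaling and overlap with it (log2 fold change 0.65, 95% interval 0.19 to 1.11, adjusted p = 0.134, and 0.43 after scaling, adjusted p = 0.131). Atp7a, the copper pump of the secretory pathway, was 2.73, 6.33, 7.65 and 5.56 FPKM in wildtype 1 to 4 and 9.37, 8.74, 7.57 and 6.43 FPKM in Has-tKO 1 to 4 (0.51, adjusted p = 0.317). Atp7b, its liver counterpart, stayed at or below 0.189 FPKM.

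The 3 magnesium carriers did not pass either. Slc41a1, which exports magnesium, had 10.3 ± 2.42 and 9.68 ± 1.40 FPKM (log2 fold change -0.06, adjusted p = 0.895). Slc41a2 was 3.46, 7.55, 7.64 and 8.23 FPKM in wildtype 1 to 4 and 8.01, 8.99, 9.07 and 8.02 FPKM in Has-tKO 1 to 4 (0.36, adjusted p = 0.445, and 0.14 after scaling). Slc41a3 was 6.10, 6.33, 5.33 and 6.56 FPKM in wildtype 1 to 4 and 6.47, 4.01, 5.28 and 6.88 FPKM in Has-tKO 1 to 4 (-0.11, adjusted p = 0.787).

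In all, 4 of the 27 genes had groups that did not overlap without scaling, all higher in Has-tKO (Slc30a1, Slc40a1, Slc11a2 and Slc31a2), against 13.6% of all genes in either direction and 12.0% higher. After scaling there were 7, with Slc30a1, Slc40a1 and Slc11a2 higher and Steap3, Slc39a3, Aco1 and Slc41a1 lower, against 13.2% in either direction, 5.64% higher and 7.6% lower. Without scaling the count is near what the share of all genes gives, and with scaling it is above it.

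Further genes of metal handling outside these families were read from the same fit. Of 31 tested iron and haem genes none passed in either fit, while 8 had an unadjusted p below 0.05 without scaling and 6 with it, against 16.7% and 18.6% of all genes. The scaled count is near that share. The haem-degrading enzyme Hmox1 was 85.2 to 234 FPKM in wildtype and 176 to 269 FPKM in Has-tKO cells (log2 fold change 0.80, adjusted p = 0.164). Blvra, which turns biliverdin into bilirubin, was 3.31 to 4.27 FPKM in wildtype and 5.31 to 7.86 FPKM in Has-tKO (0.69, adjusted p = 0.0550, and 0.46 after scaling, adjusted p = 0.249). Slc25a28, a mitochondrial iron importer, was 1.29 to 3.04 FPKM in wildtype and 3.26 to 5.22 FPKM in Has-tKO (0.75, adjusted p = 0.0926, and 0.57 after scaling).

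Of 7 tested genes of the zinc and metal response outside the metallothioneins, 1 rose without scaling and 2 with it, against 1.58% and 1.36% of all genes. Gclc, the catalytic subunit of the first enzyme of glutathione synthesis and a known Mtf1 and Nrf2 target, was 2.31, 4.55, 7.36 and 4.19 FPKM in wildtype 1 to 4 and 11.5, 9.52, 11.2 and 10.3 FPKM in Has-tKO 1 to 4. All Has-tKO libraries were above all wildtype libraries (log2 fold change 1.13, SE 0.24, limma adjusted p = 0.0404, and 0.91 after scaling, adjusted p = 0.0311). Gclc passed in neither fit when wildtype 2, wildtype 4 or any one of the Has-tKO libraries was left out. Txnrd1, thioredoxin reductase, was 9.10 to 21.4 FPKM in wildtype and 25.2 to 34.5 FPKM in Has-tKO (1.0, adjusted p = 0.0563, and 0.76 after scaling, adjusted p = 0.0482). Txnrd1 passed in 1 of the 8 scaled fits with 1 library left out, the one without wildtype 3, and it did not pass without wildtype 1 and Has-tKO 4.

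Gclm, the partner subunit of Gclc, did not pass (0.96, adjusted p = 0.0861, and 0.72 after scaling, adjusted p = 0.0821), though its groups do not overlap either. The remaining tested genes of that list passed in neither fit. Their log2 fold changes, without and with scaling, were -0.58 and -0.78 for Selenoh and 0.12 and -0.12 for Ndrg1. Those of Csrp1 were 0.34 and 0.08, and those of Mcoln1 0.28 and 0.08. None of 13 tested copper genes and none of 10 tested magnesium genes passed in either fit, and none had an unadjusted p below 0.05 without scaling, against 16.7% of all genes. With scaling each list had 1, both lower in Has-tKO without passing: Pam, a copper-dependent enzyme (-0.27, adjusted p = 0.184), and Cnnm2 (-0.31, adjusted p = 0.204). Without scaling the smallest p values were those of Sco1 (0.39, adjusted p = 0.327) and Slc25a3 (0.34, adjusted p = 0.376), mitochondrial copper proteins, and of the magnesium channels Mrs2 (0.34, adjusted p = 0.388) and Trpm7 (0.37, adjusted p = 0.495).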

How the data were processed

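RNA depleted of ribosomal RNA was sequenced, and the deposited table gives FPKM per locus for 8 libraries and 76557 loci, computed by the authors. The submitters' processing notes name StringTie, HISAT2, fastp, DESeq2 and bcl2fastq and the builds GRCm39 and hg38, with no role. Versions, options and the step from transcripts to loci were not found in the sources used here. The labels' protocols name no step that marks the strand, so overlapping and antisense genes cannot be told apart. Columns were matched to libraries by the sample code in their names.

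Values were taken as log2(FPKM + 1). Named loci reaching 1 FPKM in 4 or more libraries were fitted by genotype with limma 3.58.1 in R 4.3.3 (intensity trend, two-sided, Benjamini-Hochberg over 9916 genes, threshold 0.05). Median-ratio size factors came from 19489 loci above 0 in every library. Low values showed no step of single reads: the fullest narrow bin of between-library ratios held at most 1.27% of the loci compared for a pair, so no counting error is given. Within-library ratios were compared by exact permutation of their log2 values. No 2 libraries held identical values, and the model script was checked on simulated data. Replicate numbers name separate mice and pair no samples. Alternatives changed the scaling, pseudocount, filter, loci, trend, block and libraries.

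Per-library values are given for genes that passed either fit, the 2 with the smallest p in each role and fixed anchor genes; other genes shown in this way were chosen after their values were seen. The genes and lists were chosen with earlier results of these data known. Chromosomes come from GENCODE M21 and sequences from RefSeq, both on GRCm38.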

Additional observations from a re-analysis of the deposited data

Results flagged for a closer look

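In 3 of 54 groups of 4 libraries examined, 1 library lay far from the other 3 on the log2(FPKM + 1) scale, and chance alone flags about 1 group in 20. All 3 were low values in wildtype 1. The zinc exporter Slc30a5 was 4.04 FPKM there, against 7.59 to 8.31 FPKM in the other wildtype libraries. The iron reductase Steap3 was 12.4 FPKM, against 17.9 to 19.3 FPKM. The magnesium carrier Slc41a2 was 3.46 FPKM, against 7.55 to 8.23 FPKM. These values are unscaled, and the size factor of wildtype 1 was 0.650. After scaling wildtype 1 had 6.21 scaled FPKM of Slc30a5, against 7.21 to 8.02 in the other wildtype libraries. Steap3 was then 19.0 against 18.2 to 18.5 scaled FPKM, and Slc41a2 5.31 against 7.10 to 8.48 scaled FPKM.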

How the results depend on the processing

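Over all 9916 genes the number called was 176, and it was 280 with upper-quartile scaling, 111 with a pseudocount of 0.1 FPKM, 2 with no filter on low values, 320 without wildtype 1 and Has-tKO 4, and 31 with median-ratio scaling and a replicate block. With 1 library left out it ran from 5 to 349 unscaled and from 9 to 344 scaled. Of the metal genes 3 were called, and 0 were with a pseudocount of 0.1 or 0.5 FPKM, no filter, a filter at 0.5 FPKM, or all loci (7 with an unadjusted p below 0.05 each time, by limma). Over all genes such p values numbered, in the same order, 1597 and 1633 of 9916, 2535 of 27220, 1885 of 12224 and 2404 of 14422. Without wildtype 1 and Has-tKO 4 the count was 1, unscaled or scaled, and with 1 library left out it ran from 0 to 3 in either fit. The replicate numbers pair no samples (correlations of same-numbered deviations -0.121 to 0.311). The replicate block gave 1 metal gene, Mt2, and with scaling 0. In that scaled fit 8 of the 27 had an unadjusted p below 0.05, against 1656 of all 9916 genes.

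Of the other metal genes 1 was called. The count was 2 with either scaling, 0 with a pseudocount of 0.1 FPKM, no filter, all loci or the scaled replicate block, and 2 unscaled or 0 scaled without wildtype 1 and Has-tKO 4. With 1 library left out it ran from 0 to 5 unscaled and from 0 to 3 scaled.

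Signs turned only for genes that were not called. Ireb2 had -0.13 with median-ratio scaling, -0.11 with upper-quartile scaling, -0.14 without wildtype 1 and Has-tKO 4, -0.13 with the scaled replicate block and -0.23 scaled without both libraries. With 1 library left out it ran from -0.25 to 0.25 unscaled and from -0.33 to -0.019 scaled. Mtf1 had -0.093, -0.077, -0.017, -0.093 and -0.096 in the same 5 fits, and -0.064 to 0.17 unscaled and -0.14 to -0.05 scaled with 1 library left out. Leaving out 1 library, Fth1 ran from 0.27 to 0.52 unscaled and -0.029 to 0.34 scaled, and Slc41a3 from -0.19 to 0.023 unscaled and down to -0.44 scaled. Over 16 metal genes and 448 values, 332 kept direction and side of the threshold, 72 lost the call, 12 gained one and 32 changed sign. The causes were not tested, except that fits with fewer libraries rest on fewer samples. Scaled fits with a library left out, with the block or without both libraries were chosen after seeing the data. Depth is unknown, so the counting error of low genes cannot be given.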

Other observations

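No locus was named Ftl1, the light chain of ferritin, but Ftl1-ps1, a locus named as its processed copy, stood at 39.0 to 61.1 FPKM in wildtype and 55.6 to 87.5 FPKM in Has-tKO cells (log2 fold change 0.37, adjusted p = 0.384). Reads of the parent gene and of the copy cannot be told apart here.

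Tal1, a transcription factor of blood cells that stood on the list of erythroid markers, rose in Has-tKO from 0.897 to 1.69 FPKM in the wildtype libraries to 2.55 to 5.75 FPKM in the Has-tKO libraries (log2 fold change 1.18, limma adjusted p = 0.0229). After scaling it passed as well (1.01, adjusted p = 0.0389). Of 11 erythroid markers with a named locus 2 were at 0 in all libraries and 3 were tested, of which Hbb-bt had -0.11 and Hbb-bs 0.46, neither passing. Acp5, the iron-containing acid phosphatase of osteoclasts, fell after scaling (-1.71, limma adjusted p = 0.0498) and missed the threshold without it (-1.46, adjusted p = 0.0653), with 15.1 to 56.9 FPKM in wildtype and 5.6 to 16.3 FPKM in Has-tKO. It was the single osteoclast marker of 5 tested that passed in either fit, against 1.29% of all genes called lower after scaling. Without scaling 3 of the 5 had a positive and 2 a negative log2 fold change, and after it 2 and 3. Mmp9 was lower without passing (-1.23, limma adjusted p = 0.131, and -1.46 after scaling, adjusted p = 0.0751). Tnfrsf11a was higher without passing (0.70, adjusted p = 0.155, and 0.47 after scaling).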
